A study of Mus musculus with 24 samples.

Results

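The genes *Olig2*, *Olig1*, *Sox10*, *Nkx2-2*, *Pdgfra*, *Cspg4* and *Mbp* mark the oligodendrocyte lineage, and their transcripts were followed in the embryonic brain of *Tfap2b*-/- mice. These 7 genes, given as a list of names, were found among the 54446 genes counted. The filter on low counts kept all 7 in every comparison. RNA was taken from 12 mouse embryos at stage E14.5, with 3 female and 3 male *Tfap2b*-/- embryos (mutants) and 3 female and 3 male *Tfap2b*+/+ embryos (controls). Each brain gave 2 libraries, 1 of the secondary prosencephalon (SP) and 1 of the diencephalon, midbrain and hindbrain together (DMH). In the mutant allele a neomycin cassette interrupts an exon of *Tfap2b*, in every cell of the embryo, and all embryos came from matings between heterozygotes. No library pooled several embryos, and the *Hox* transcripts of the DMH pieces differed widely between embryos, as described beneath.

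Oligodendrocytes form the myelin of the central nervous system. Their precursors are first specified in ventral domains of the spinal cord, hindbrain and forebrain, where the bHLH factors OLIG1 and OLIG2 and the homeobox factor NKX2-2 are expressed in progenitors, and SOX10 then marks cells committed to the lineage. Precursors carry the PDGF receptor PDGFRA and the proteoglycan NG2, encoded by *Cspg4*, at their surface and begin to make myelin proteins such as MBP only later. None of these genes is restricted to this lineage. *Olig2* and *Nkx2-2* are also used by neuronal progenitors, *Sox10* by neural crest and Schwann cells, *Pdgfra* by mesenchyme and *Cspg4* by pericytes. These are bulk samples, in which fewer cells of a type and less RNA per cell cannot be told apart.

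In GENCODE vM21 on GRCm38 all 7 are protein-coding genes. *Olig2* (chr16:91225457-91228677, plus strand) and *Olig1* (chr16:91269772-91271933, plus strand) lie 41.1 kb apart on chromosome 16. *Sox10* is at chr15:79154908-79165240 on the minus strand, *Nkx2-2* at chr2:147177546-147194243 on the minus strand, *Pdgfra* at chr5:75152292-75198215 on the plus strand and *Cspg4* at chr9:56865033-56899870 on the plus strand.

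RefSeq promoter windows on GRCm38.p6 were at hand for 4 of the 7 genes, *Nkx2-2*, *Pdgfra*, *Cspg4* and *Olig2*. The 250 bases before the RefSeq transcription start are shown for *Olig2* and *Nkx2-2*, because *Olig2* had its highest level in SP whereas *Nkx2-2* was nearly restricted to DMH. The *Olig2* window is chr16:91225300-91225549 on the plus strand and the *Nkx2-2* window chr2:147186403-147186652 on the minus strand, each written 5′ to 3′. The RefSeq starts, 91225550 and 147186402, lie inside the GENCODE genes given above, which begin further upstream.
*Olig2*: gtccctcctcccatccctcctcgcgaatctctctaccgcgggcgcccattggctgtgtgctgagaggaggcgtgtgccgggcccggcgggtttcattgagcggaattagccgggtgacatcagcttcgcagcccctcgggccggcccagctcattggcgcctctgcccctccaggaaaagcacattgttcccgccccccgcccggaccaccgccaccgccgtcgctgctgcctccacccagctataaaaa
*Nkx2-2*: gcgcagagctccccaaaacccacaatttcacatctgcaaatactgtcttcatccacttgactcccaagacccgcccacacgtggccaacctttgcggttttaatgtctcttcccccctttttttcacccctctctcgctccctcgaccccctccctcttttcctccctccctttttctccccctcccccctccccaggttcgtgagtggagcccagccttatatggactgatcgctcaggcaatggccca
*Tfap2b* encodes an AP-2 factor, and the palindromic AP-2 motif GCCNNNGGC, which reads the same on either strand, was searched in these windows. None of the 4 windows held this form, against 13.7% of the 32851 windows of the genome. Forms with another spacing were not searched. These letters alone say nothing about binding.

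Between 24.7 and 66.8 M fragments per library (median 32.1 M) were counted on genes, and a count of 3, taken as the floor, equals 0.0449 to 0.121 CPM. This floor covers counting error only. Levels are counts scaled to library size (CPM), normalised over the 24 libraries with TMM. *Tfap2b* itself had 281 to 435 CPM in the 6 control DMH libraries and 50.4 to 56.6 CPM in the mutant ones, a log2 fold change of -2.85 ± 0.11 (SE, adjusted p = 2.5e-07 by edgeR), and 2.75 to 4.72 CPM in SP of either genotype. The regions were checked against their markers. *En1*, *En2* and *Pax2*, markers of midbrain and hindbrain, summed to 95.9 to 132 CPM in DMH and at most 0.33 CPM in SP. Female mutant 3 was left out of the tests. Its DMH library held 685 CPM of 7 skeletal muscle markers and 1739 CPM of 5 cartilage markers, where the highest values in the other DMH libraries were 9.13 and 88.2 CPM. The libraries labelled female control 2 held 122 and 133 CPM of 4 Y-linked genes, as the libraries labelled male did (125 to 194 CPM), while the other libraries labelled female had at most 0.035 CPM. The label was kept.

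The DMH libraries fell into 2 sets by their *Hox* transcripts. *Hox* genes are expressed in the caudal hindbrain and not in the midbrain or diencephalon, and the sum over 15 *Hox* genes was taken as the *Hox* content of a piece. In 8 of the 12 DMH libraries the sum was 352 to 541 CPM, and these are called *Hox*-positive. In the other 4, called *Hox*-low, it was 0.0378 CPM (female control 1), 0.105 and 0.942 CPM (female mutants 1 and 2) and 15.3 CPM (male mutant 2). A cut of 100 CPM separated them. Of the *Hox*-low libraries 3 were mutants and 1 was a control, and 3 were labelled female and 1 male. *Hox* content therefore moved together with genotype, and with sex by label, in DMH. Female control 2, which held Y-linked transcripts, was *Hox*-positive. What set the *Hox* content of a piece was not tested. These sets come from the data and are not groups of the study.

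**Figure D1:**
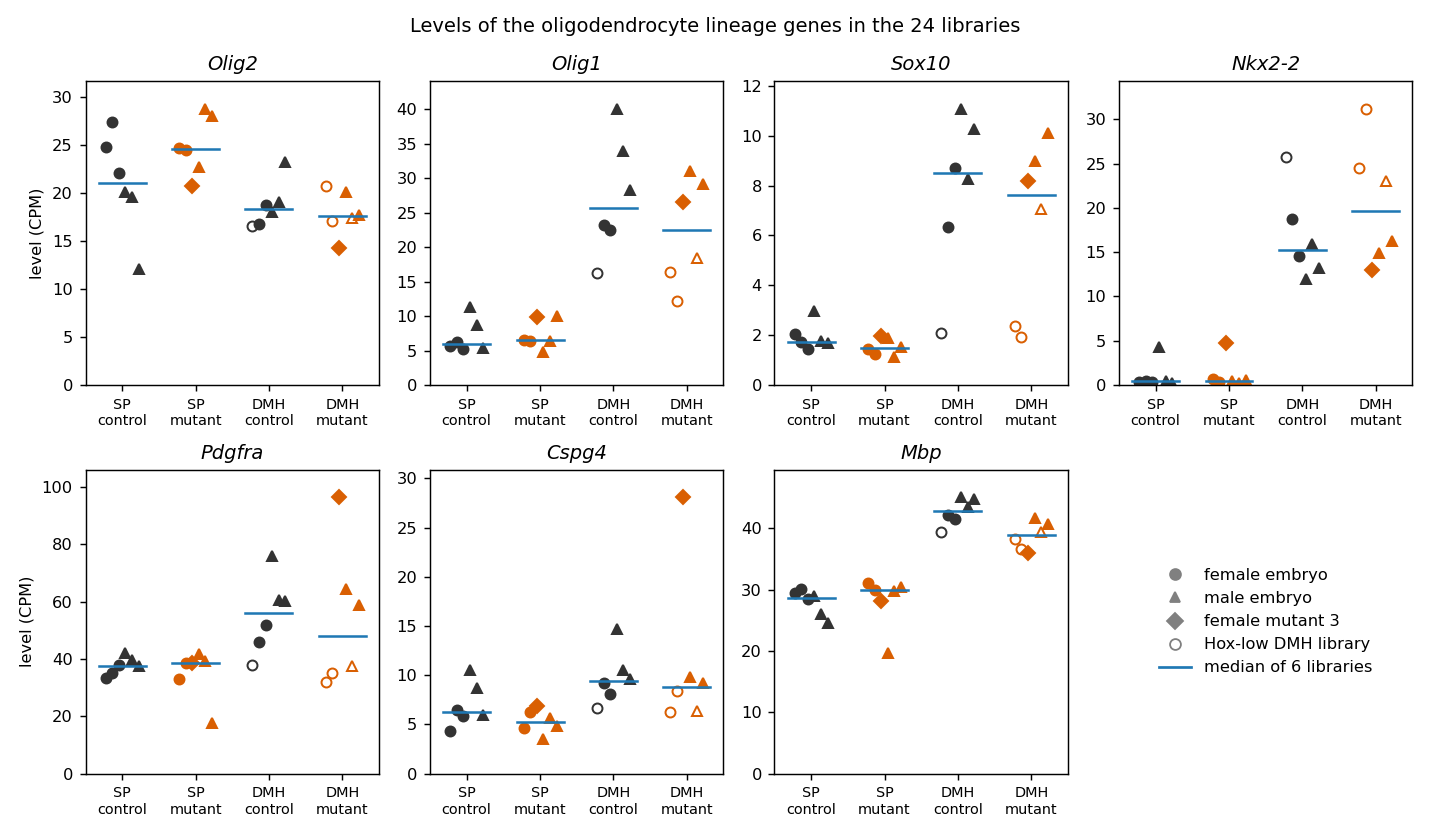
Level of each gene (vertical axis, CPM, linear and starting at 0) in the 24 libraries, by region and genotype, with a blue line at the median of the 6 libraries of each column. Circles are female and triangles male embryos, diamonds are female mutant 3, open symbols are *Hox*-low DMH libraries. *Olig1*, *Nkx2-2* and *Mbp* separate DMH from SP completely, *Olig2* does not, and the open symbols lie at the bottom of the DMH columns for *Olig1* and *Pdgfra* and at the top for *Nkx2-2*.

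The first question was where these genes were expressed. In DMH against SP, 36.6% of all genes tested (6474 of 17684) were called differentially expressed (DE), which required FDR < 0.2 and a log2 fold change (log2FC) beyond 0.5 in either direction, and 21.6% were called higher in DMH. Of the 7 lineage genes 5 were called, all higher in DMH. These were *Nkx2-2*, *Sox10*, *Olig1*, *Cspg4* and *Mbp*. Without male mutant 1, *Cspg4* (0.48) and *Mbp* (0.50) fell just inside the fold threshold and 3 remained called. The median log2FC of the 7 genes was 0.56, beside 0.01 over all genes. *Olig2* was lower in DMH and *Pdgfra* was higher, both inside the fold threshold.

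*Olig2*, the factor needed to specify oligodendrocyte precursors and motor neurons, had 14.3 to 23.3 CPM in the 12 DMH libraries (median 17.9) and 12.1 to 28.8 CPM in the 12 SP libraries (median 23.6). The ranges overlapped. Within embryos the DMH level was below the SP level in 11 of 12, with a DMH to SP ratio of 0.61 to 1.92 (median 0.77). Only male control 3 had the higher level in DMH, where its DMH library was the highest of the DMH libraries and its SP library the lowest of the SP libraries. The fitted log2FC was -0.31 ± 0.10 (SE, adjusted p = 0.0117 by edgeR), inside the fold threshold.

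*Olig2* is used widely in the subpallium, the ventral telencephalon that makes GABAergic neurons. The 7 subpallial markers summed to 346 to 690 CPM in SP and 52.4 to 252 CPM in DMH. In male control 3 this sum was the lowest of SP (346 CPM) and the highest of DMH (252 CPM), as was its *Olig2* level. The part of subpallial tissue in the *Olig2* levels was not tested. The 5 motor neuron markers summed to 43.4 to 61.4 CPM in DMH and 16.9 to 47.1 CPM in SP, and *Mnx1* was at or under 3 counts in every SP library.

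*Olig1*, the neighbour of *Olig2* and a factor of later precursors, differed from it in its distribution. It had 12.1 to 40.1 CPM in DMH (median 24.9) and 4.76 to 11.3 CPM in SP (median 6.38), so that every DMH library exceeded every SP library. The level was higher in DMH in 12 of 12 embryos, by 1.91 to 6.53 times, and the log2FC was 1.77 ± 0.15 (SE, adjusted p = 3.6e-10 by edgeR). The share of genes with no overlap in this direction was 15.7% among 14414 genes with a mean of at least 1 CPM. The ratio of *Olig1* to *Olig2* CPM was 0.71 to 2.22 in DMH and 0.21 to 0.56 in SP, so the ranges of the ratio did not overlap either.

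*Sox10*, the factor of committed oligodendrocyte cells and of neural crest, had 1.93 to 11.1 CPM in DMH (median 8.23) and 1.12 to 2.97 CPM in SP (median 1.70). The DMH libraries of 3 embryos fell inside the SP range, and all 3 were *Hox*-low. The level was higher in DMH in 12 of 12 embryos, from 1.02 times in female control 1 to 6.59 times in male mutant 3. The model gave a log2FC of 1.91 ± 0.22 (SE, adjusted p = 8.8e-08 by edgeR). Of the 7 markers of Schwann cells and neural crest, *Tfap2a* alone had 28.6 to 48.9 CPM in DMH and at most 1.23 CPM in SP. The other 6 summed to 1.81 to 17.7 CPM in DMH (median 13.2) and 0.48 to 1.51 CPM in SP. In the 3 DMH libraries with *Sox10* in the SP range this sum lay just above the SP range, at 1.81 to 2.74 CPM, and in the other 9 it was 7.92 CPM or more. The part of Schwann and neural crest cells in the *Sox10* difference was not tested.

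*Nkx2-2*, a factor of the most ventral progenitors and of differentiating oligodendrocytes, was the member with the largest difference between regions. It had 12.0 to 31.2 CPM in DMH (median 16.1) and 0.20 to 4.79 CPM in SP (median 0.44), from 8 counts upward. Every DMH library exceeded every SP library, with a log2FC of 4.70 ± 0.43 (SE, adjusted p = 7.7e-09 by edgeR). In SP 10 of the 12 libraries had at most 0.66 CPM, while male control 1 had 4.26 CPM and female mutant 3 had 4.79 CPM. In these same SP libraries the sum of 5 markers of the ventral midline and the p3 domain was 16.6 and 18.8 CPM, against 4.09 to 9.77 CPM in the other SP libraries, and 31.0 to 72.0 CPM in DMH. The part of ventral tissue in these levels was not tested.

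Of the surface molecules of precursors, *Pdgfra* had 31.9 to 96.3 CPM in DMH (median 55.3) and 17.7 to 42.0 CPM in SP (median 38.2). It was higher in DMH in 9 of 12 embryos, and the other 3 were embryos whose DMH library was *Hox*-low. In the fit the log2FC was 0.45 ± 0.13 (SE, adjusted p = 0.0040 by edgeR), inside the fold threshold. *Cspg4* had 6.26 to 28.1 CPM in DMH (median 9.22) and 3.57 to 10.5 CPM in SP (median 5.92), with overlapping ranges. It was higher in DMH in 12 of 12 embryos, with a log2FC of 0.56 ± 0.12 (SE, adjusted p = 0.00026 by edgeR), just past the fold threshold. The *Cspg4* value fell inside the threshold without male mutant 1 (0.48) and in embryos with *Hox*-low DMH (0.40).

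Markers of other cells that use these receptors also differed between the regions. The sum of 8 markers of meninges and mesenchyme was 705 to 3211 CPM in DMH and 152 to 694 CPM in SP. At the upper end stood the DMH library of female mutant 3, with 3211 CPM of these markers, the highest *Pdgfra* (96.3 CPM) and the highest *Cspg4* (28.1 CPM). At the lower end stood the SP library of male mutant 3, with 152 CPM of these markers and the lowest *Pdgfra* (17.7 CPM). The next lowest sum in SP was 458 CPM. The 6 pericyte markers summed to 288 to 314 CPM in DMH and 208 to 273 CPM in SP. The part of mesenchyme and pericytes in the *Pdgfra* and *Cspg4* levels was not tested.

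**Figure D2:**
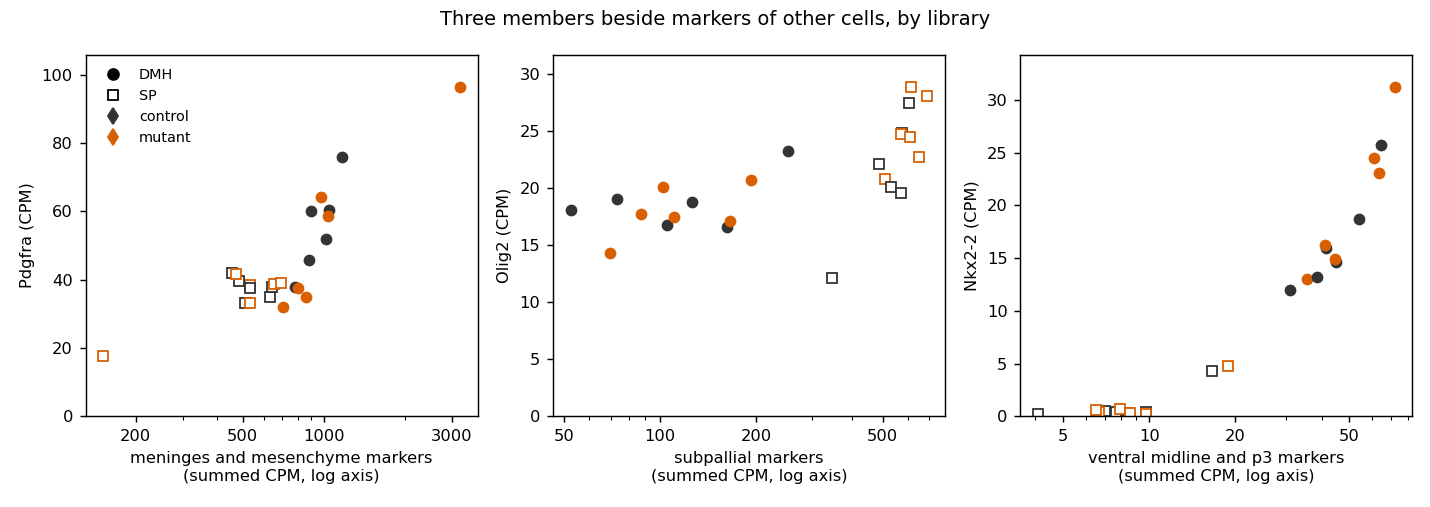
Level of *Pdgfra*, *Olig2* and *Nkx2-2* (vertical axes, CPM from 0) against the summed level of 8 mesenchymal, 7 subpallial and 5 ventral markers (horizontal axes, CPM, log scale) in the 24 libraries, with circles for DMH, squares for SP and orange for mutants. The isolated points are female mutant 3 (96.3 CPM) and male mutant 3 (17.7 CPM) for *Pdgfra*, male control 3 in SP (12.1 CPM) for *Olig2*, and male control 1 and female mutant 3 in SP (4.26 and 4.79 CPM) for *Nkx2-2*.

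*Mbp*, which encodes myelin basic protein, lies at chr18:82475146-82585637 on the plus strand. It had 36.0 to 45.1 CPM in DMH (median 41.1) and 19.7 to 31.0 CPM in SP (median 29.2), with no overlap. It was higher in DMH in 12 of 12 embryos, by 1.22 to 2.12 times, and the log2FC was 0.54 ± 0.06 (SE, adjusted p = 5.8e-08 by edgeR). The *Mbp* locus also encodes golli transcripts, which neurons and other cells express. Counts per gene do not separate the products of the locus.

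**Figure D3:**
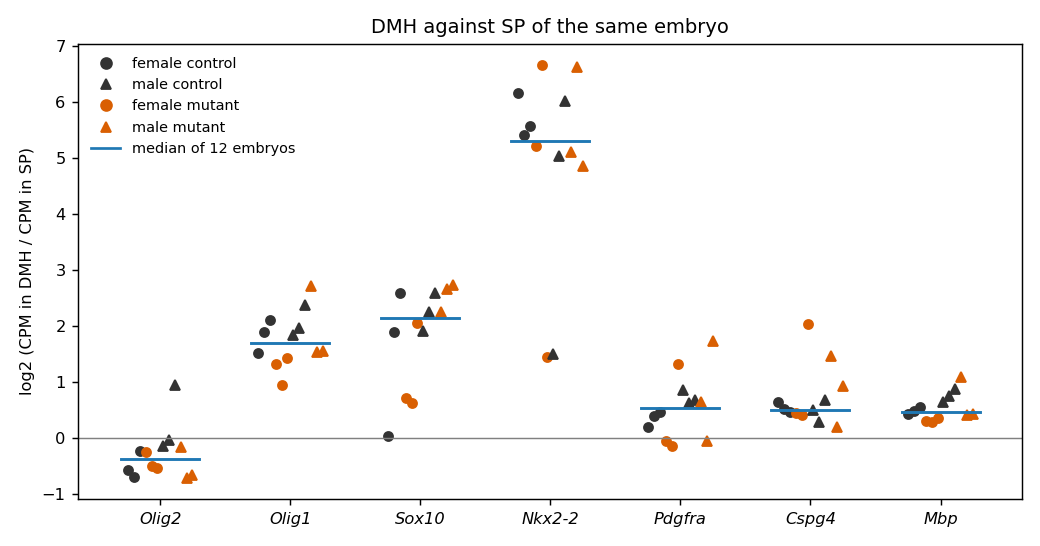
Log2 ratio of the DMH level to the SP level (vertical axis) within each of the 12 embryos, for each gene. Circles are female and triangles male embryos, orange marks mutants, and a blue line marks the median. *Olig2* lies below 0 in 11 of 12 embryos, *Pdgfra* above 0 in 9, and the other 5 genes above 0 in all 12.

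Per kilobase of exon, levels can be compared between the genes. In DMH the order was *Olig1* (11.5 ± 3.80 CPM per kb, mean ± SD of 12 libraries), *Olig2* (7.25 ± 0.91), *Nkx2-2* (6.47 ± 2.12), *Pdgfra* (5.45 ± 1.88), *Mbp* (4.81 ± 0.35), *Sox10* (2.33 ± 1.08) and *Cspg4* (0.89 ± 0.50). Only *Mbp* and *Sox10* were separated by more than their SDs among neighbours in this order. The order was not the same in the 2 sets of DMH libraries. *Nkx2-2* came first in the 4 *Hox*-low libraries (9.08 ± 1.24), before *Olig1* (7.32 ± 1.22) and *Olig2* (7.11 ± 0.73). In the 7 *Hox*-positive ones without female mutant 3 *Olig1* came first (13.8 ± 2.82), before *Olig2* (7.56 ± 0.83), *Pdgfra* (5.95 ± 0.94) and *Nkx2-2* (5.25 ± 0.76). In SP the order was *Olig2* (9.09 ± 1.82 CPM per kb), *Pdgfra* (3.61 ± 0.65), *Olig1* (3.34 ± 1.01), *Mbp* (3.31 ± 0.38), *Sox10* (0.57 ± 0.16), *Cspg4* (0.52 ± 0.16) and *Nkx2-2* (0.38 ± 0.56). In SP the gaps after *Olig2* and after *Mbp* exceeded the SDs, and the other neighbours overlapped.

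Other genes of the lineage were taken from a list of 43, of which 40 were tested. Between DMH and SP 32 of the 40 were called, beside 36.6% of all genes. Of these 21 were higher and 11 lower in DMH, beside 21.6% and 15% of all genes. The median log2FC of the list was 0.62, beside 0.01 over all genes. All 9 called genes of myelin and maturation, out of 12 tested, were higher in DMH, led by *Bcas1* of early myelinating cells (14.3 ± 1.66 CPM in DMH and 1.75 ± 0.43 in SP, log2FC 3.02, SE 0.12). Of 10 surface and matrix genes 6 were called higher and 2 lower, and *C1ql1*, which precursors secrete, led those higher in DMH (8.35 ± 1.4 CPM in DMH and 1.48 ± 0.29 in SP, 2.47, SE 0.10). Of the ligands of PDGFRA, *Pdgfc* was lower in DMH (-0.71, SE 0.07) and *Pdgfa* (0.28, SE 0.07) was inside the fold threshold. Specification factors went either way, 6 higher and 8 lower of 16 tested. *Nkx6-1*, which patterns ventral progenitors, had 17.8 ± 4.74 CPM in DMH and 0.60 ± 0.20 in SP (4.84, SE 0.19), and *Zfp488*, a cofactor of OLIG2, 2.47 ± 0.35 and 0.25 ± 0.10 CPM (3.28, SE 0.15). The lower ones were led by *Sox5* (52.1 ± 5.08 CPM in DMH and 319 ± 42.7 in SP, -2.63, SE 0.08), *Nfia* (-2.01, SE 0.07), *Sox6* (-1.51, SE 0.06) and *Zeb2* (-1.74, SE 0.11). These 4 factors also act in neurons of the telencephalon.

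Next, the members were compared between *Hox*-positive and *Hox*-low DMH libraries, 7 against 4, with sex and genotype in the model. Of all genes tested 6.89% were called DE, 5.6% higher and 1.29% lower in *Hox*-positive libraries. Of the 7 members 4 were called. *Sox10*, *Olig1* and *Pdgfra* were higher and *Nkx2-2* was lower in the *Hox*-positive libraries, and the median log2FC was 0.37, beside 0.00 over all genes.

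*Sox10* had 2.08 CPM in female control 1, 2.37 and 1.93 CPM in female mutants 1 and 2 and 7.04 CPM in male mutant 2, the 4 *Hox*-low libraries. In the 7 *Hox*-positive libraries it had 6.32 to 11.1 CPM (median 9.0). The 3 female *Hox*-low libraries lay below all others, and male mutant 2, the *Hox*-low library with the most *Hox* transcripts, lay inside the *Hox*-positive range. The log2FC was 1.13 ± 0.30 (SE, adjusted p = 0.0452 by edgeR).

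*Olig1* had 16.2, 16.5, 12.1 and 18.5 CPM in the same 4 libraries and 22.6 to 40.1 CPM in the 7 *Hox*-positive ones (median 29.2). The sets did not overlap, as was the case in this direction for 11.4% of genes with a mean of at least 1 CPM. The fitted log2FC was 0.59 ± 0.13 (SE, adjusted p = 0.0262 by edgeR). Without male mutant 2 it was 0.48 (adjusted p = 0.17) and the call was lost. Among the *Hox*-positive libraries the 5 male ones had 28.3 to 40.1 CPM and the 2 labelled female 22.6 and 23.2 CPM, the latter being female control 2, which held Y-linked transcripts.

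*Pdgfra* had 38.0, 31.9, 35.0 and 37.5 CPM in the *Hox*-low libraries and 45.8 to 75.8 CPM in the *Hox*-positive ones (median 60.2), again with no overlap. The model gave a log2FC of 0.52 ± 0.11 (SE, adjusted p = 0.0232 by edgeR), just past the fold threshold. It fell inside the threshold without male mutant 1 (0.48) or male mutant 2 (0.38). Mesenchymal markers moved with it, at 705 to 863 CPM in the *Hox*-low and 878 to 1167 CPM in the *Hox*-positive libraries. Their part in this difference was not tested. All 8 markers were above 3 counts in every library.

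*Nkx2-2* went the other way. It had 25.7, 24.5, 31.2 and 23.1 CPM in the *Hox*-low libraries and 12.0 to 18.7 CPM in the *Hox*-positive ones (median 14.9), with no overlap, beside 13.2% of genes that lay fully lower in this comparison. In the fit the log2FC was -0.60 ± 0.12 (SE, adjusted p = 0.0137 by edgeR). Markers of the ventral midline and p3 had 60.8 to 72.0 CPM in the *Hox*-low and 31.0 to 54.1 CPM in the *Hox*-positive libraries. Their part in this difference was not tested.

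*Cspg4* (0.37, SE 0.21), *Mbp* (0.07, SE 0.05) and *Olig2* (0.05, SE 0.12) were not called. The sets did not overlap for *Mbp*, which had 39.5, 38.3, 36.6 and 39.4 CPM in the *Hox*-low libraries and 40.7 to 45.1 CPM in the *Hox*-positive ones, beside the 11.4% of genes that lay fully higher. With female mutant 3 (36.0 CPM), which is *Hox*-positive, they overlapped. For *Olig2* the *Hox*-low libraries had 16.6, 20.7, 17.2 and 17.5 CPM and the *Hox*-positive ones 16.8 to 23.3 CPM (median 18.8), with overlapping ranges. The *Olig1* to *Olig2* ratio was 0.71 to 1.06 in the *Hox*-low and 1.20 to 2.22 in the *Hox*-positive libraries. Pericyte markers overlapped between the sets (288 to 299 and 288 to 314 CPM). *Tfap2a* overlapped as well (36.6 to 41.2 and 28.6 to 48.9 CPM), whereas the other 6 markers of Schwann cells and neural crest were lowest in the same 3 libraries as *Sox10*. Their sum was 1.81, 2.74 and 2.04 CPM in the 3 female *Hox*-low libraries and 10.6 CPM in male mutant 2, against 7.92 to 17.7 CPM in the *Hox*-positive ones. Their part in the *Sox10* difference between the sets was not tested.

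**Figure D4:**
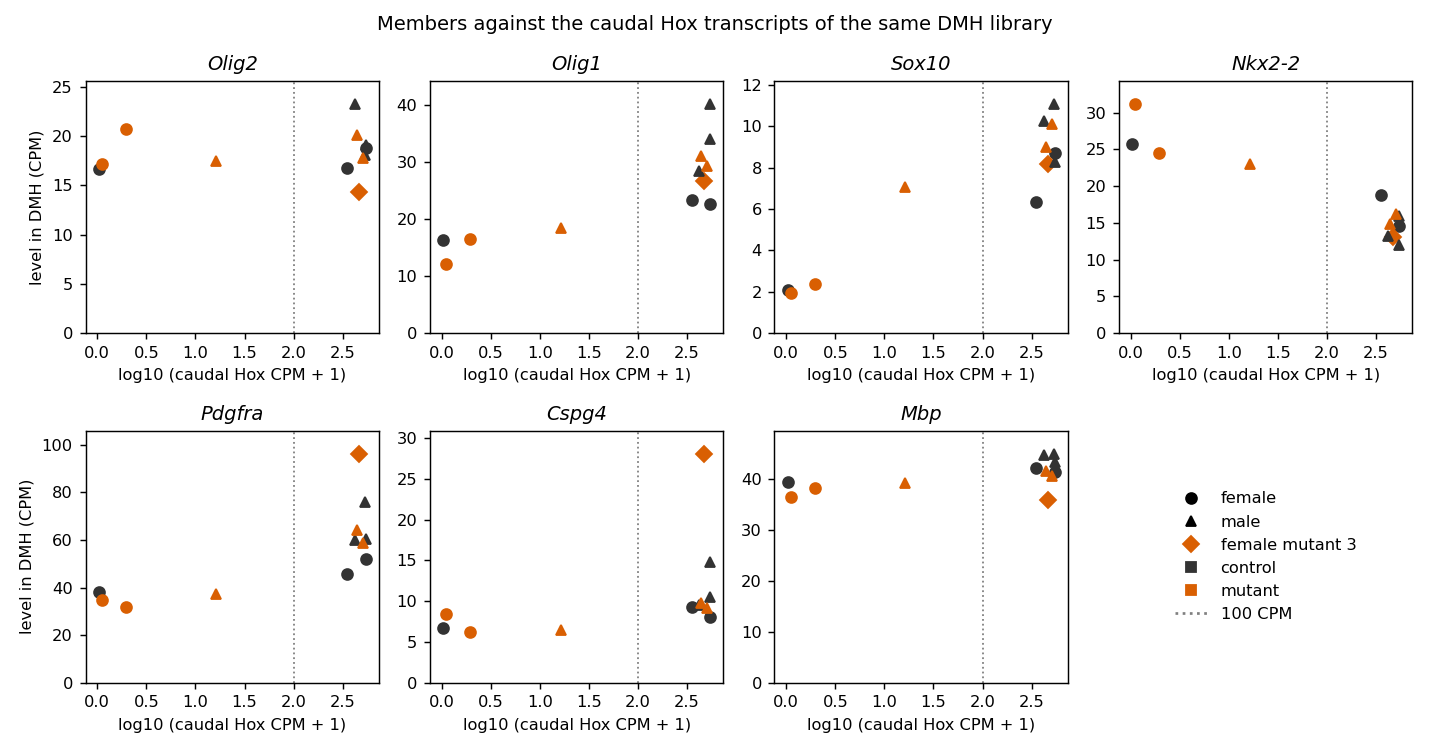
Level of each gene (vertical axis, CPM from 0) in the 12 DMH libraries against log10 of the summed caudal *Hox* level in CPM plus 1 (horizontal axis), by genotype and sex. *Olig1* and *Pdgfra* are higher and *Nkx2-2* is lower in every *Hox*-positive library than in every *Hox*-low one, while *Olig2* and *Cspg4* overlap.

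Of the wider list 10 of 40 genes were called between the *Hox* sets, 8 higher and 2 lower in the *Hox*-positive libraries, beside 5.6% and 1.29% of all genes. *Gpr17*, a receptor of precursors about to differentiate, had 11.6 ± 2.02 CPM in the *Hox*-positive and 3.27 ± 1.06 CPM in the *Hox*-low libraries (log2FC 1.5, SE 0.16, edgeR adjusted p = 0.00033). *Bcan*, a matrix proteoglycan, had 33.9 ± 4.75 and 16.8 ± 3.9 CPM (0.72, SE 0.12). The myelin genes *Gjb1* (1.51, SE 0.43) and *Mag* (0.68, SE 0.23) were also higher, although *Gjb1* had at most 0.44 ± 0.14 CPM on average. Among the genes that were lower was *Tcf7l2* (523 ± 63.4 and 954 ± 151 CPM, -0.70, SE 0.13), which thalamic neurons also express strongly. Without female control 3 or without male mutant 1 the count was 6.

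The study's own question was the effect of *Tfap2b*. None of the 7 genes was called DE between mutant and control in female DMH, male DMH, female SP or male SP. The shares of all genes called were 0.00596%, 0.0236%, 0.0181% and 0% in these comparisons. DESeq2 called 0 of 7 in each as well. At an unadjusted p under 0.05 by edgeR, 2, 1, 0 and 2 of the 7 genes differed, beside 8.9%, 2.89%, 2.58% and 3.65% of all genes. With both sexes in 1 fit, 0 of 7 were called in DMH, where 0.0523% of all genes (9 of 17223) were called, and 0 of 7 in SP, where the share was 0%, and DESeq2 called none in either. At the same unadjusted threshold 4 of the 7 differed in DMH, beside 15% of all genes, and 2 of the 7 in SP, beside 5.07%. In DMH both the count and the share depended on the fit. Only *Mbp* passed with female control 2 coded as male (3.34% of all genes) or with female mutant 3 included (2.88%). The same held with the *Hox* set as a covariate (2.35%). Within the *Hox*-positive libraries 0 of the 7 passed, beside 281 of 17575 genes. With female mutant 3 added to these libraries only *Mbp* passed, beside 468 of 17744 genes.

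In DMH the fitted value was below 0 for 6 genes. With female mutant 3 included *Cspg4* was 0.19, and *Olig2*, at -0.03, was 0.05 without male control 3 and 0.01 without male mutant 2. *Mbp* had 39.5, 42.2 and 41.5 CPM in female controls, 38.3 and 36.6 CPM in female mutants 1 and 2, 45.1, 43.5 and 44.9 CPM in male controls and 41.6, 39.4 and 40.7 CPM in male mutants. Within each sex every mutant lay below every control, as was the case for 0.617% of genes with a mean of at least 1 CPM. The 4 *Hox*-low libraries were the lowest of these 11 for *Mbp*, and 3 of them are mutants. The difference was small, with a log2FC of -0.14 (SE 0.04, unadjusted p = 0.0036, edgeR adjusted p = 0.33).

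*Olig1* had 16.2, 23.2 and 22.6 CPM in female controls and 16.5 and 12.1 CPM in female mutants 1 and 2, and 40.1, 34.0 and 28.3 CPM in male controls against 31.0, 18.5 and 29.2 CPM in male mutants. The groups overlapped in either sex. The log2FC was -0.45 (SE 0.16, unadjusted p = 0.0202, edgeR adjusted p = 0.33). *Nkx2-2* had 25.7, 18.7 and 14.6 CPM in female controls and 24.5 and 31.2 CPM in female mutants, and 12.0, 16 and 13.2 CPM in male controls against 14.9, 23.1 and 16.2 CPM in male mutants. It was the only member with a higher mean in mutants (0.43, SE 0.16, adjusted p = 0.33). *Pdgfra* (-0.36, SE 0.14, adjusted p = 0.33), *Cspg4* (-0.32, SE 0.16, adjusted p = 0.34), *Sox10* (-0.65, SE 0.35, adjusted p = 0.37) and *Olig2* (-0.03, SE 0.09, adjusted p = 0.87) were not called either.

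The fit was repeated with *Hox* content taken into account. With the *Hox* set as a covariate the log2FC was -0.19 for *Olig1* (-0.45 without it), -0.07 for *Sox10* (-0.65), 0.15 for *Nkx2-2* (0.43), -0.13 for *Pdgfra* (-0.36), -0.15 for *Cspg4* (-0.32), -0.11 for *Mbp* (-0.14) and -0.01 for *Olig2* (-0.03), each nearer to 0. Within the 7 *Hox*-positive libraries, 5 controls against 2 mutants, the values were -0.20 for *Olig1*, -0.07 for *Sox10*, 0.16 for *Nkx2-2*, -0.11 for *Pdgfra*, -0.30 for *Cspg4*, -0.11 for *Olig2* and -0.13 for *Mbp*. None was called, and the edgeR adjusted p was 1 for each. In this subset *Cspg4* stayed close to its value in all 11 libraries and *Olig2* lay further from 0, while *Sox10* changed most. In female DMH the number of members called changed with the single *Hox*-low control and with the filter. With that control kept, *Olig1* and *Nkx2-2* were called when no filter on low counts was set, beside 535 of 29519 genes. Without female control 1, *Hox*-positive controls stood against *Hox*-low mutants, and 4 members were called, *Sox10* (-1.80, adjusted p = 0.0191), *Olig1* (-0.67, adjusted p = 0.0625), *Pdgfra* (-0.53, adjusted p = 0.0498) and *Nkx2-2* (0.76, adjusted p = 0.0606), beside 6.63% of all genes. In that subset genotype and *Hox* content cannot be told apart.

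**Figure D5:**
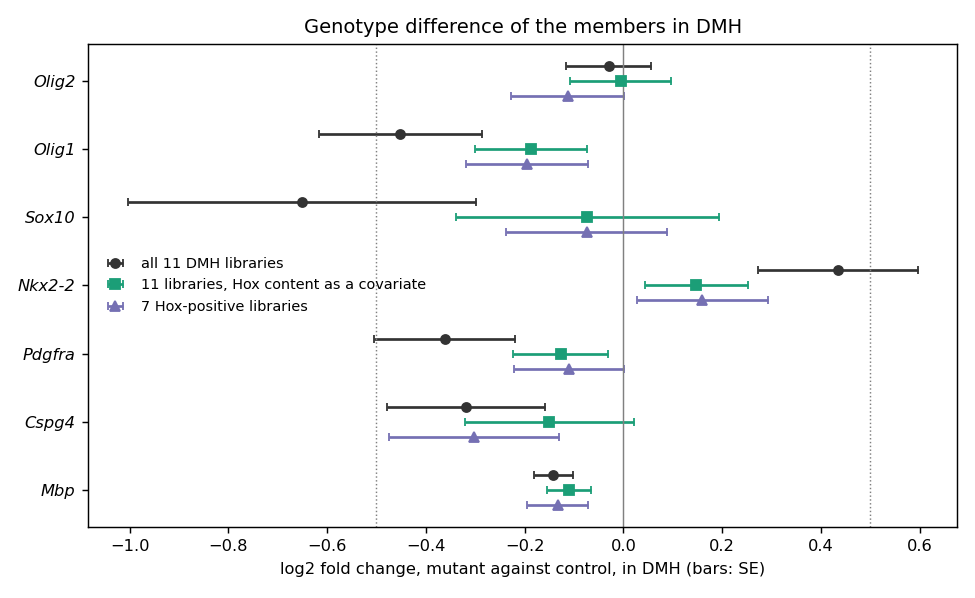
Log2 fold change of each gene between mutant and control DMH (horizontal axis, with bars of 1 SE), in the 11 libraries of both sexes, in the same libraries with *Hox* content as a covariate, and in the 7 *Hox*-positive libraries. The values of *Sox10*, *Olig1*, *Pdgfra* and *Nkx2-2* move towards 0 in the latter fits, and that of *Mbp* stays between -0.14 and -0.11.

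In SP none of the members was called. *Olig2* had 20.1, 19.6 and 12.1 CPM in male controls and 22.7, 28.8 and 28.1 CPM in male mutants, with no overlap, beside 6.02% of genes that were fully higher in male mutant SP (log2FC 0.63, SE 0.21, edgeR adjusted p = 0.97). The sums of the subpallial markers did not overlap in these libraries either, with 530, 572 and 346 CPM in male controls and 651, 612 and 690 CPM in male mutants, and their part in the *Olig2* values was not tested. In female SP *Olig2* had 24.8, 27.5 and 22.1 CPM in controls and, in mutants 1 and 2, 24.8 and 24.5 CPM (-0.01, SE 0.09). *Cspg4* had 10.5, 8.72 and 6.0 CPM in male controls and 3.57, 5.65 and 4.84 CPM in male mutants, also with no overlap, beside 5.79% of genes that were fully lower (-0.83, SE 0.26, adjusted p = 0.97, and -0.66 without male mutant 1, whose SP library had the largest unmapped share of all, 9.98%), and in female SP it differed by -0.02 (SE 0.19). The interaction of genotype and sex was 0.65 (SE 0.26, unadjusted p = 0.0308) for *Olig2* and -0.79 (SE 0.36, unadjusted p = 0.0523) for *Cspg4*, with adjusted p = 1.00 for both.

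*Nkx2-2* in male SP had the largest fitted change (-2.03, SE 1.05), which rested on male control 1 and was 0.25 (SE 0.59) without it. No member was called for the interaction of genotype and sex in DMH or SP, where 0% of all genes were called, nor for that of genotype and region, where 0.00565% were. The unadjusted p was under 0.05 for 0 of 7 members in the DMH interaction, for 1 in the SP interaction and for 0 in the interaction with region, beside 2%, 2.21% and 2.06% of all genes, and DESeq2 called 0 in each.

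Of the wider list none of the 40 genes tested was called between genotypes in DMH of both sexes, and 10 had an unadjusted p under 0.05 by edgeR, beside the 15% given. DESeq2 called 2 of them, beside 0.302% of all genes, and 7 were called by edgeR without male mutant 1, beside 3.1%. The 10 surface and matrix genes had a median log2FC of -0.47 and the 12 genes of myelin and maturation -0.08, beside 0.00 over all genes. Between the *Hox* sets the medians of these lists were 0.46 and 0.28, with 4 of the 10 and 3 of the 12 called higher in *Hox*-positive libraries. In SP 36 genes of the list were tested, none was called by edgeR or DESeq2, and 8 had an unadjusted p under 0.05, beside the 5.07% given.

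The members did not vary as a block. After the mean of each region was subtracted, Pearson's r of log2(CPM + 0.5) over the 22 libraries ranged from -0.29 to 0.75 among the 21 pairs of members, with a median of 0.16. It was highest for *Olig1* with *Sox10* (0.75) and *Olig1* with *Cspg4* (0.71), and it was 0.16 for *Olig1* with *Olig2*. The points share libraries, depth and the *Hox* content of the DMH pieces, so these values are descriptions only.

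Among 14413 genes with a mean of at least 1 CPM, those most like each member by this measure were *Rasgef1c* (0.96), *Rims3* (0.96) and *Caskin1* (0.95) for *Olig1*, *Slc10a4* (0.85), *Asb4* (0.84) and *Nkx2-3* (0.80) for *Olig2*, and *Erbb3* (0.96), *Chodl* (0.93) and *Prrxl1* (0.93) for *Sox10*. For *Nkx2-2* they included *Nkx2-4* (0.92) and *Barhl1* (0.88), and for *Pdgfra* they were *Adam12* (0.95), *Postn* (0.95) and *Itih2* (0.94). *Cspg4* was most like *Mtor* (0.89), *Zmym3* (0.89) and *Lrp1* (0.88), and *Mbp* most like *Tmem132e* (0.91), *Cnp* (0.88) and *Rps6ka4* (0.87). Of the genes named here, only *Erbb3* and *Cnp* belong to the wider lineage list.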

How the data were processed

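Polyadenylated RNA of 24 pieces of brain was sequenced by the authors with a stranded dUTP protocol. Per the submitters' processing notes the tools were cutadapt 2.4, STAR 2.6.1d and edgeR, and the builds named are GRCm38.p6 and mm10. The deposited values are raw counts of fragments per gene and library, whole numbers without normalisation, and fragments mapped to several places are not in the gene counts. The 4 lines of each table that name no gene (unmapped, multimapping, unassigned and ambiguous, 5.46 to 9.98%, 4.96 to 7.85%, 4.68 to 7.46% and 1.10 to 1.62% of fragments) were left out. Main values come from the dUTP strand, the unstranded counts were an alternative, and the 1 remaining column of counts entered nothing. A GENCODE vM21 symbol was found, by identifier without version, for 54409 of the 54446 genes and not for 37. The authors' depth differed between libraries (24.7 to 66.8 M fragments on genes), and the floor was set at 3 counts.

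Groups were taken from the labels. Libraries are of separate embryos, 3 per condition, and no pair of a condition was a copy of another (lowest chi-square per gene 9.62 over 24 pairs). edgeR 4.0.16 in R 4.3.3 was used for the tests (filterByExpr, TMM and the robust form of the quasi-likelihood fit), with Benjamini-Hochberg adjustment over all genes tested. Calls followed the study's thresholds, FDR < 0.2 and a log2 fold change (log2FC) beyond 0.5. The SE was obtained as the size of the log2FC over the root of its F statistic. Female mutant 3 was left out of the tests, as the study did. Sex was a covariate where both sexes entered, and sex and genotype in the comparison of *Hox* sets, which rests on the *Hox* genes that the study tabulates. The tests were run on simulated counts with large changes and without *Hox* or sex structure. That check does not show what the tests can detect in these data. The SP and DMH library of an embryo are paired by origin (r of their deviations 0.08 to 0.55 over 12 embryos), whereas control and mutant libraries share only a number. Alternatives were RLE size factors, no filter, at least 10 counts in every library, unstranded counts, DESeq2 1.42.0, an FDR under 0.05, no fold threshold, all samples, the replicate block, *Hox* content as a covariate or a subset, and each replicate left out in turn.

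The members and lists were chosen with earlier results of these data known. Named are the 7 members, *Tfap2b*, of the called genes of the wider list up to 4 in each direction by smallest p, and for each member the 3 genes of highest correlation. *Pdgfa*, *Pdgfc* and the marker genes were named from their lists. A few genes that these rules name are not reported here. Promoter sequences are from RefSeq. Python 3.11.15 with matplotlib 3.10.9 drew the figures.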

Additional observations from a re-analysis of the deposited data

Results flagged for a closer look

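Within the 28 groups of 6 libraries that were examined (each member in control or mutant libraries of DMH or SP), 6 held a library far from the rest by Dixon's criterion, where chance flags about 1 in 20 groups, that is 5%. *Olig2* was 23.3 CPM in the DMH of male control 3, against 16.6 to 19.1 CPM in the other DMH controls. *Pdgfra* was 17.7 CPM in the SP of male mutant 3, against 33.1 to 41.6 CPM in the other SP mutants. *Cspg4* was 28.1 CPM in the DMH of female mutant 3, against 6.26 to 9.82 CPM in the other DMH mutants. *Nkx2-2* was 4.26 CPM in the SP of male control 1, against 0.20 to 0.49 CPM in the other SP controls, and 4.79 CPM in the SP of female mutant 3, against 0.23 to 0.66 CPM in the other SP mutants. *Mbp* was 19.7 CPM in the SP of male mutant 1, against 28.2 to 31.0 CPM in the other SP mutants. Of the 24 libraries this one had the highest unmapped (9.98%) and multimapping (7.85%) share of fragments and the lowest ambiguous share, and their part in its *Mbp* level was not tested.

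The libraries of female mutant 3, which entered no main comparison, lay above every control of their region for 3 members. *Pdgfra* was 96.3 CPM in its DMH, where the controls had 38.0 to 75.8 CPM. *Cspg4* was 28.1 CPM in its DMH, where the controls had 6.65 to 14.7 CPM. *Nkx2-2* was 4.79 CPM in its SP, where the controls had 0.20 to 4.26 CPM. Its DMH library lay below every DMH control for *Olig2* (14.3 CPM, against 16.6 to 23.3 CPM) and *Mbp* (36.0 CPM, against 39.5 to 45.1 CPM).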

How the results depend on the processing

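In female DMH the number of members called was 0. It was 2 with no filter on low counts (*Olig1* and *Nkx2-2*), beside 535 of 29519 genes called. It was 0 to 4 when each library was left out in turn, 4 without female control 1, beside 6.63% of all genes. In DMH of both sexes it was 0, and 0 to 2 over the libraries left out, 2 without male mutant 1 (*Olig1* -0.53, *Nkx2-2* 0.51, adjusted p = 0.17 for both). In DMH against SP it was 5, and 3 to 6 over the libraries left out, 3 without male mutant 1 (*Cspg4* 0.48, *Mbp* 0.50) and 6 without female mutant 2 (*Pdgfra* 0.51). It was 7 with no fold threshold, beside 14252 of 17684 genes called. It was 6 with all samples, beside 6425 of 17620 genes, and in embryos with *Hox*-positive DMH, beside 6770 of 17384. It was 4 with at least 10 counts in every library, which left *Nkx2-2* untested, beside 4594 of 14499 genes. It was also 4 in embryos with *Hox*-low DMH, beside 5719 of 17225 genes. Between the *Hox* sets it was 4, and 2 to 4 over the libraries left out, 2 without male mutant 2. It was 5 with all samples, beside 2335 of 17437 genes called. With the log2 of the *Hox* sum it was 3, beside 1215 of 17555 genes. The other comparisons held 0 called members under every alternative run, and no member called in the tests as reported changed direction. Of those called between genotypes under an alternative, *Pdgfra* in female DMH was 0.27 with all samples, and *Nkx2-2* in DMH of both sexes was -0.02 with all samples within the *Hox*-positive libraries. There *Pdgfra* was 0.30 and *Cspg4* 0.50.

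With the replicate block the number of members called was the same in each comparison it was run for, 5 in DMH against SP, where it pairs the pieces of an embryo, and 0 in those of genotype, where control and mutant share only a number (r -0.19 to 0.58). It was not run for the *Hox* sets or for the interactions of genotype and sex.

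With the fold threshold kept, *Olig2* was called lower in DMH in mutant embryos (-0.51) and in embryos with *Hox*-low DMH (-0.53). *Pdgfra* was called higher in DMH with all samples (0.57), in control embryos (0.53) and in embryos with *Hox*-positive DMH (0.70), where the value in embryos with *Hox*-low DMH was -0.03. *Cspg4* (0.48) and *Mbp* (0.44) fell inside the fold threshold in control and in mutant embryos, respectively, and both did so in embryos with *Hox*-low DMH (0.40 and 0.34). With the log2 of the *Hox* sum as a covariate *Pdgfra* was 0.46 per gap between the *Hox* sets and was not called, and with all samples *Cspg4* was called between the sets (1.1). The subsets of control embryos, mutant embryos and embryos with *Hox*-low DMH, all samples within the *Hox*-positive libraries, and female control 2 coded as male were chosen after seeing the data, and the last changed no member call, although the adjusted p of the 4 members called between the *Hox* sets was then 0.08 to 0.13. Over all genes, female DMH had 1 gene called, 535 with no filter, 77 with DESeq2 and 41 with the replicate block, and DMH of both sexes 9, 52 with DESeq2 and 4 with *Hox* content as a covariate. Small sets of 2 or 3 libraries per condition and sex limit what these tests can detect.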
